A study of Homo sapiens with 4 samples.

Results

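RNase H2 and the other genes through which cells remove ribonucleotides from DNA were followed in single cells of MM134 (MDA MB 134VI), a long-established human line of lobular breast cancer. The 6 genes were chosen by name: RNASEH2A, RNASEH2B and RNASEH2C, RNASEH1, TOP1 and SAMHD1. All 6 have a row among the 33538 genes of the deposited expression matrix (all-gene rows), and TOP1 alone also has a row among the 1253 genes of a targeted cancer panel (panel row). Wild-type MM134 cells were deprived of hormone in charcoal-stripped serum and then received 100 nM estradiol or vehicle (0.01% ethanol) for 24 h. The estradiol library held 3367 cells and the vehicle library 4940, and in each cell DNA repair was read as well, on synthetic hairpins, of which the riboG hairpin is described here. There was 1 library per treatment, so no difference between treatments has a replicate check, no test was run, and every interval given is a 95% interval for counting error alone.

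Polymerases place ribonucleotides in DNA by mistake throughout replication. RNase H2, made of the catalytic subunit RNASEH2A and the accessory subunits RNASEH2B and RNASEH2C, cuts beside a single ribonucleotide and opens ribonucleotide excision repair, in which polymerase delta or epsilon, PCNA, FEN1 and a ligase finish the work. RNASEH1 digests longer RNA:DNA hybrids and does not act on a single embedded ribonucleotide. Topoisomerase I (TOP1) relaxes DNA and can also cut at ribonucleotides that RNase H2 has left, a route prone to mutation. SAMHD1 breaks down deoxynucleotides and so bears on how often a ribonucleotide is used in their place. Inherited defects in the 3 RNase H2 genes and in SAMHD1 cause Aicardi-Goutières syndrome, an inflammatory disease of the brain.

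The all-gene rows summed to 5937422 UMIs (unique molecules) with estradiol and 6918198 with vehicle, the panel rows to 10352943 with estradiol and 14080930 with vehicle, and the repair rows to 4479977 with estradiol and 4738500 with vehicle. A median cell had 1561 all-gene UMIs with estradiol and 1199 with vehicle, and 1311 repair UMIs with estradiol against 930 with vehicle. By the deposited phase calls, S cells were 29.0% of estradiol cells and 15.6% of vehicle cells, and G1 cells 34.5% of estradiol cells and 50.5% of vehicle cells. The luminal markers ESR1, GATA3, FOXA1, KRT8, KRT18, KRT19 and EPCAM were all detected. The lowest were FOXA1 with 258 CPM (UMIs per 1000000 UMIs of the same rows) with estradiol and ESR1 with 262 with vehicle. CDH1, which lobular carcinomas lose, had 10.3 with estradiol and 10.1 with vehicle. In the all-gene rows the 8 immune and endothelial markers together had 1 UMI in each library. PTPRC had 0 panel UMIs with estradiol and 3 with vehicle. Of 7 basal or myoepithelial markers KRT5, KRT14, KRT17, TP63 and ACTA2 had no UMI in the all-gene rows, MYLK had 6 UMIs with estradiol and 8 with vehicle, and OXTR had 36 with estradiol and 35 with vehicle. TP63 had 13 panel UMIs with estradiol and 25 with vehicle. Of 7 mesenchymal markers VIM and COL1A1 alone had UMIs in the all-gene rows, and they summed to 140 CPM with estradiol and 184 with vehicle. The 12 G2/M markers had a median log2 ratio of estradiol to vehicle of -0.19. Of 6 estrogen-induced genes, 5 were measured and 4 were at least 1.5-fold higher with estradiol, where 3.4% of all genes were. In the panel rows 3 were measured and 3 were higher, where 2.98% of panel genes were. The libraries shared 4 cell barcodes.

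RNASEH2A was the member that differed most between treatments. It had 194 UMIs with estradiol and 111 with vehicle, which is 32.7 CPM with estradiol (28.2 to 37.6) against 16.04 with vehicle (13.2 to 19.3). The intervals did not overlap. The ratio of estradiol to vehicle was 2.04-fold (1.60 to 2.60), or 1.03 on the log2 scale (0.68 to 1.38), and it stood at the 99.3 percentile of the ratios of 10977 genes with at least 50 UMIs. The other members lay between the 21.2 and 71.2 percentiles. A gene was counted as past 1.5-fold when it had at least 50 UMIs, a ratio of 1.5-fold or more and an interval without 1; by this rule 1 of 6 members was higher and 0 were lower, where 3.4% of all genes were higher and 5.74% lower. A UMI of RNASEH2A was found in 5.55% of estradiol cells and 2.13% of vehicle cells. With each cell thinned to 800 UMIs, which left out 139 shallower estradiol cells and 951 vehicle cells, the share was 2.51% of estradiol cells (1.998 to 3.11) and 0.928% of vehicle cells (0.654 to 1.28). MM134 is a single line with no cell type that lacks these genes, so no background share from free RNA could be set beside them.

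**Figure D1:**
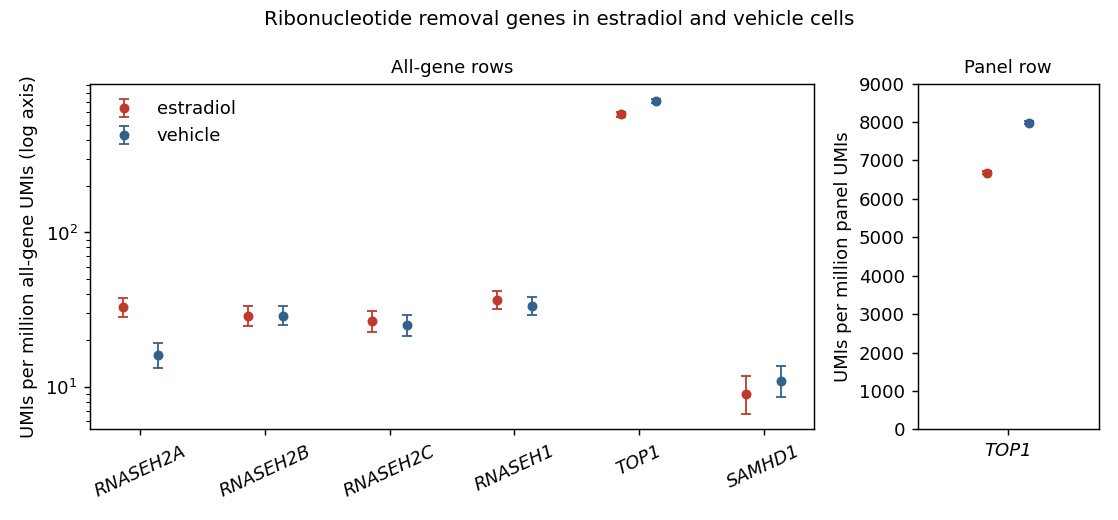
Levels of the 6 genes as CPM, all-gene rows on a log axis (left panel) and the TOP1 panel row on a linear axis (right panel). Points are the estradiol library and, right of it, the vehicle library, with 95% counting intervals. RNASEH2A stands at 32.7 with estradiol and 16.04 with vehicle, while the intervals of RNASEH2B, RNASEH2C, RNASEH1 and SAMHD1 overlap between treatments.

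RNASEH2A spans chr19:12806584-12813640 on GRCh38.p14, RNASEH2B chr13:50909678-50970460 and RNASEH2C chr11:65717673-65720798. Because RNASEH2A parted from the other subunit genes, the 250 bases before each start are shown, from RefSeq on GRCh38.p14, 5′ to 3′ on the gene's own strand. They lie at chr19:12806334-12806583 (plus strand), chr13:50909428-50909677 (plus strand; the upstream of 2 starts listed) and chr11:65720799-65721048 (minus strand). Capitals mark matches on either strand to the CCAAT box (CCAAT) and to an arm of the estrogen response element (GGTCA). Letters of the E2F motif searched (TTTNNCGC) were in none of the 6 members' windows and in 5.92% of 35116 promoter windows.
RNASEH2A: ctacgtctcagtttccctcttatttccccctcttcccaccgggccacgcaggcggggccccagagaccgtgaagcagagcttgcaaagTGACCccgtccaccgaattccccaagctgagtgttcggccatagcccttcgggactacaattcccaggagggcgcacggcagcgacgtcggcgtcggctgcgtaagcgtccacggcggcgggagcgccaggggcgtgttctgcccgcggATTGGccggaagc
RNASEH2B: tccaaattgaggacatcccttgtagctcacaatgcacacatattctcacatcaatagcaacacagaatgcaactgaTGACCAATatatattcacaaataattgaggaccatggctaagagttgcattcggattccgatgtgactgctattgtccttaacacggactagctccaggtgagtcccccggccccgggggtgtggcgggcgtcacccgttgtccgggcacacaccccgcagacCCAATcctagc
RNASEH2C: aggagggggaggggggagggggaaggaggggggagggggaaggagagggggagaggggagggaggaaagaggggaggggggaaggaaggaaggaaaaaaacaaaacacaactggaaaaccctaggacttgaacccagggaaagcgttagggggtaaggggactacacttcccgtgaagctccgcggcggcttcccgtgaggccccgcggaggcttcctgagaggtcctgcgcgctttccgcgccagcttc
In RNASEH2A the GGTCA arm lies at bases 162 to 158 before the start and the CCAAT box, on the reverse strand, at bases 13 to 9. In RNASEH2B a GGTCA arm at bases 174 to 170 overlaps a CCAAT box at 171 to 167, with another CCAAT box at 11 to 7. RNASEH2C had neither. Of all promoter windows of this length, 32.6% hold a GGTCA arm and 32.01% a CCAAT box, so these matches are common letters and describe the sequence only. The RNASEH2A window was 66% G and C with 26 CpG, against a median of 58% and 11 over all windows. RNASEH2B had 51.2% and 10, and RNASEH2C 63.6% and 12.

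The accessory subunit genes did not share the difference. RNASEH2B, which carries the site that binds PCNA, had 171 UMIs with estradiol and 200 with vehicle, or 28.8 CPM with estradiol (24.6 to 33.5) against 28.9 with vehicle (25.04 to 33.2), a log2 ratio of -0.01 (-0.31 to 0.30). RNASEH2C, which sits between the other subunits in the complex, had 158 UMIs with estradiol and 173 with vehicle, or 26.6 CPM with estradiol (22.6 to 31.1) and 25.01 with vehicle (21.4 to 29.0), a log2 ratio of 0.09 (-0.23 to 0.41). For counting error alone, these intervals hold ratios from 0.807-fold to 1.23-fold for RNASEH2B and from 0.852-fold to 1.33-fold for RNASEH2C. The 3 subunit genes together had 523 UMIs with estradiol and 484 with vehicle, or 88.1 CPM with estradiol (80.7 to 96.0) against 70.0 with vehicle (63.9 to 76.5). RNASEH2A made up 37.1% of these subunit UMIs with estradiol (32.9 to 41.4) and 22.9% with vehicle (19.3 to 26.9). For each RNASEH2B UMI there were 1.13 RNASEH2A UMIs with estradiol and 0.555 with vehicle. UMIs are not scaled for transcript length, so these shares compare libraries and not amounts of subunit. A UMI of any subunit was seen in 462 estradiol cells and 444 vehicle cells, and 0 cells of either library had all 3, so the makeup of the complex cannot be read in single cells. RNASEH2B overlaps the antisense gene RNASEH2B-AS1, which had 1 UMI with estradiol and 0 with vehicle, and RNASEH2C overlaps KAT5; the sources used here do not say whether the counting used strand.

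By cell cycle phase, RNASEH2A was lowest in G1 in both libraries. It had 21.5 CPM in G1 (15.4 to 29.3), 39.6 in S (30.6 to 50.4) and 36.4 in G2M (29.2 to 44.9) with estradiol. With vehicle it had 7.33 in G1 (4.59 to 11.1), 31.1 in S (21.4 to 43.6) and 19.6 in G2M (14.8 to 25.5). The G1 and the G2M intervals did not overlap between treatments, and the S intervals did. The log2 ratio of estradiol to vehicle was 1.56 (0.77 to 2.38) within G1 cells, 0.35 (-0.27 to 1.00) within S cells and 0.89 (0.39 to 1.40) within G2M cells. Whether these 3 ratios differ from each other was not tested. The S level was 1.84-fold the G1 level (1.22 to 2.80) with estradiol and 4.24-fold (2.40 to 7.63) with vehicle. The S level was 1.09-fold the G2M level (0.778 to 1.51) with estradiol and 1.58-fold (0.997 to 2.48) with vehicle. Both intervals included 1, the vehicle one narrowly. The G1 calls do not hold the same cells in the libraries: deposited cluster 1 took 27.7% of G1 cells with estradiol and 5.86% with vehicle, and cluster 2 took 6.02% with estradiol and 43.2% with vehicle. In G1 cells outside those clusters RNASEH2A had 28 UMIs with estradiol and 14 with vehicle, a log2 ratio of 1.503 (0.53 to 2.54), under the minimum of 50 UMIs. The clusters left still differed in their part of G1 cells. Cluster 3 took 22.4% with estradiol and 7.18% with vehicle, and cluster 6 took 6.36% with estradiol and 23.9% with vehicle.

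**Figure D2:**
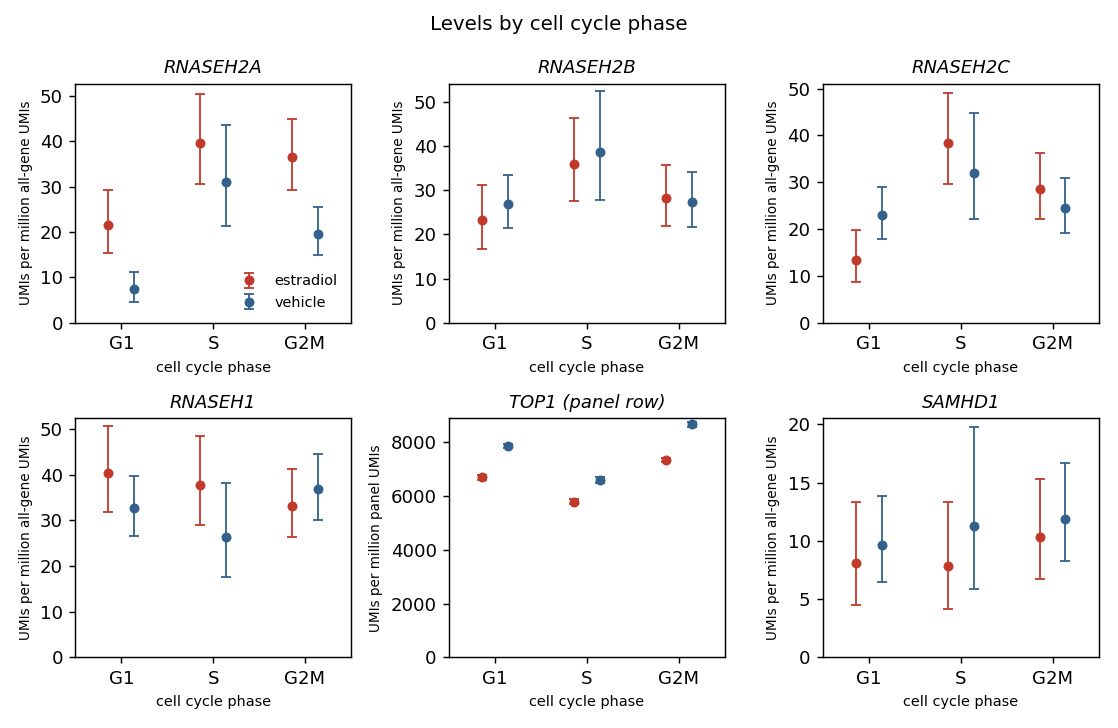
Levels of each gene in G1, S and G2M cells as CPM, the estradiol library left of the vehicle library, with 95% counting intervals. RNASEH2A is lowest in G1, at 21.5 with estradiol and 7.33 with vehicle, RNASEH2C in G1 is at 13.5 with estradiol and 23.0 with vehicle, and TOP1 in the panel row is lower with estradiol in all 3 phases.

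RNASEH2C parted from RNASEH2A in G1. It had 25 UMIs in G1 cells with estradiol and 69 with vehicle, or 13.5 CPM with estradiol (8.72 to 19.9) against 23.0 with vehicle (17.9 to 29.1), a log2 ratio of -0.77 (-1.49 to -0.09), while its ratio was 0.26 (-0.36 to 0.91) in S cells and 0.22 (-0.28 to 0.72) in G2M cells. In G1 cells outside clusters 1 and 2 it was -0.83 (-1.68 to -0.04), over 19 UMIs with estradiol and 48 with vehicle. RNASEH2B had 23.2 CPM in G1, 36.0 in S and 28.2 in G2M cells with estradiol, and 27.0 in G1, 38.6 in S and 27.3 in G2M with vehicle, with overlapping intervals in each phase. RNASEH2A thus made up 37.0% of subunit UMIs in G1 with estradiol (27.9 to 46.9) and 12.8% with vehicle (8.19 to 18.7). In S cells it made up 34.7% with estradiol and 30.6% with vehicle. Within G1 cells 2 of 5 members with at least 50 UMIs were past 1.5-fold, RNASEH2A higher and RNASEH2C lower, where 10.8% of all genes were past it either way. Within S cells 0 of 5 were past it, where 7.01% of all genes were, and within G2M cells RNASEH2A alone of 6, where 8.55% were. Between S and G1 cells of the estradiol library 3 of 5 members were past 1.5-fold, RNASEH2A, RNASEH2B and RNASEH2C, all higher in S, beside 11.4% of all genes either way. In the vehicle library it was RNASEH2A alone of 5, beside 13.3% of all genes.

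Across the 8 deposited clusters, RNASEH2A with estradiol was highest in cluster 0, at 44.1 CPM (33.9 to 56.4), where vehicle cells had 25.5 (17.8 to 35.4). Cluster 0 was 78.0% G2M cells with estradiol and 81.7% with vehicle. In cluster 1, mostly S cells, the levels were close, at 33.1 (23.4 to 45.4) with estradiol and 30.3 (18.8 to 46.4) with vehicle. In cluster 3, whose cells were the deepest, estradiol cells had 33.3 (25.6 to 42.6) and vehicle cells 22.3 (14.7 to 32.5). In cluster 4, made up of G2M cells alone, estradiol cells had 28.6 (16.6 to 45.7) and vehicle cells 10.02 (4.81 to 18.4), a log2 ratio of 1.51 (0.30 to 2.80) over 27 UMIs in all, under the minimum of 50. Clusters 2, 5, 6 and 7 had 9 UMIs or fewer in each library, and cluster 6 had none with estradiol and 4 with vehicle. With equal weight to each phase, a planned setting, the log2 ratio of RNASEH2A was 0.75, against 1.03 with the cells as they fell. With equal weight to each cluster, a setting chosen after seeing the data, the ratio was 0.66. Markers of S phase moved with RNASEH2A: all 14 of them had a ratio above 1, their median log2 ratio was 0.59, and their summed level was 1497 CPM with estradiol and 1009 with vehicle. Their part in the RNASEH2A difference was not tested beyond the values within phases.

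RNASEH1 had 218 UMIs with estradiol and 231 with vehicle, or 36.7 CPM with estradiol (32.004 to 41.9) against 33.4 with vehicle (29.2 to 38.0), a log2 ratio of 0.14 (-0.14 to 0.41). Its phases did not separate either. It had 40.4 in G1, 37.8 in S and 33.1 in G2M cells with estradiol, and 32.6 in G1, 26.4 in S and 36.8 in G2M cells with vehicle, all with overlapping intervals. Its antisense neighbour RNASEH1-AS1 had 17.5 CPM with estradiol and 10.7 with vehicle, 1.64-fold (1.204 to 2.24). The RefSeq spans of these neighbours do not overlap. RNASEH1 spans chr2:3531813-3558333 on GRCh38.p14. SAMHD1, at chr20:36889773-36951708 and overlapping TLDC2, was the least detected member, with 53 UMIs with estradiol and 75 with vehicle, or 8.93 CPM with estradiol (6.69 to 11.7) against 10.8 with vehicle (8.53 to 13.6), a log2 ratio of -0.28 (-0.82 to 0.25). An interval this wide holds anything from a 0.568-fold to a 1.19-fold ratio. By phase SAMHD1 stayed between 7.80 and 10.4 with estradiol and between 9.66 and 11.9 with vehicle.

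TOP1 was lower with estradiol, by a small amount that the panel row measured closely. It had 69225 panel UMIs with estradiol and 112423 with vehicle, or 6687 panel CPM with estradiol (6637 to 6737) against 7984 with vehicle (7937 to 8031), a log2 ratio of -0.26 (-0.27 to -0.24). The all-gene row, with 1 UMI for each 21.7 in the panel, gave 582 CPM with estradiol (563 to 602) against 709 with vehicle (689 to 729), a log2 ratio of -0.28 (-0.35 to -0.22). The ratio was not past 1.5-fold, beside a background where 2.98% of 940 panel genes were higher and 11.7% lower, and the median panel gene was itself at -0.11. Scaling by a median-of-ratios size factor in place of the panel total brought TOP1 to -0.16. A cell held a median of 18 TOP1 panel UMIs with estradiol and 19 with vehicle, and 2 estradiol cells and 1 vehicle cell held none, so TOP1 was detected in nearly every cell. TOP1 spans chr20:41028822-41124487 on GRCh38.p14 and overlaps PLCG1-AS1.

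TOP1 was lowest in S cells, where each RNase H2 subunit gene had its highest point value, with intervals that overlapped those of G2M cells. In the panel row S cells were lowest, at 5783 CPM (5695 to 5871) with estradiol and 6564 (6456 to 6674) with vehicle, G1 cells stood at 6675 with estradiol and 7844 with vehicle, and G2M cells were highest, at 7318 with estradiol (7236 to 7400) and 8640 with vehicle (8565 to 8715). No intervals overlapped between phases of a library or between treatments within a phase, and the log2 ratio of estradiol to vehicle was -0.23 in G1, -0.18 in S and -0.24 in G2M cells. In the panel row TOP1 was lower with estradiol in all 8 clusters, with log2 ratios between -0.36 in cluster 2 and -0.13 in cluster 1. These ratios are scaled by the panel total, on which the median panel gene was at -0.11 over all cells. In the all-gene row the interval excluded a ratio of 1 in clusters 0, 3 and 4 alone, and cluster 2 was at 0.09 (-0.36 to 0.51). Cluster 7 had the highest level, 9621 with estradiol and 10693 with vehicle, then cluster 4, with 8684 with estradiol and 9649 with vehicle. Cluster 3, at 6253 with estradiol and 6923 with vehicle, and then cluster 1, at 6039 with estradiol and 6628 with vehicle, were lowest. Among the middle clusters with estradiol, 5 (6702), 2 (6629), 0 (6527) and 6 (6501) did not differ beyond their intervals. With vehicle cluster 2, at 8480, stood above 5 (7786), 6 (7662) and 0 (7599), which did not differ beyond theirs. Over the 16 groups of cluster and library TOP1 in the all-gene row correlated with RNASEH2C at a Pearson r of -0.79, and with RNASEH2A and RNASEH2B at -0.42 and -0.43. These groups share library and depth, and the values are a description. RNASEH2C had 1 UMI in cluster 2 and 2 in cluster 6 with estradiol, and 3 in cluster 7 of each library, so its correlation rests partly on groups near the floor.

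**Figure D3:**
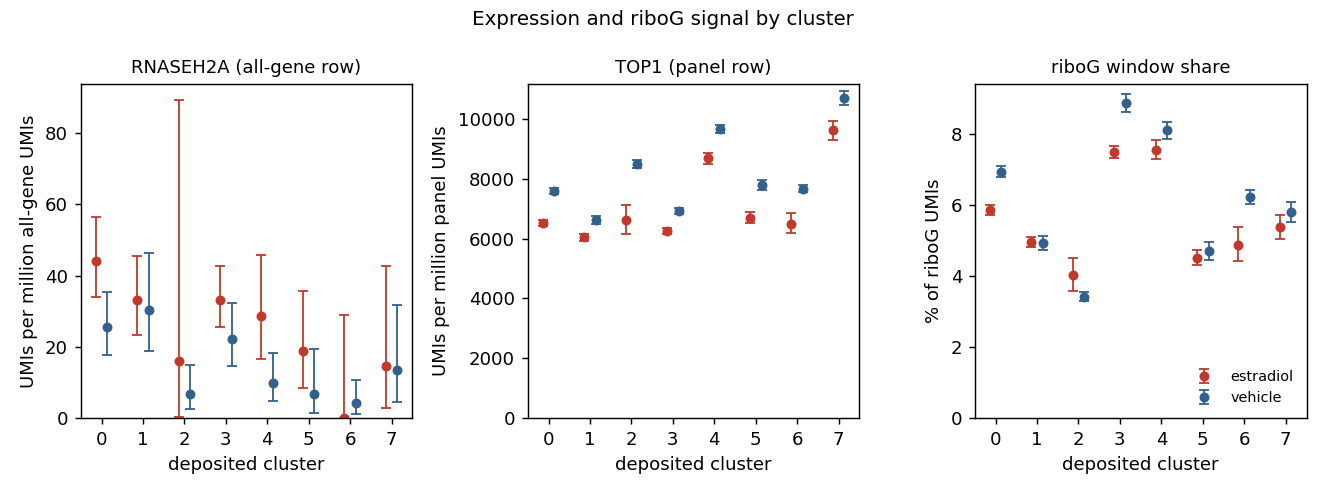
RNASEH2A (all-gene CPM), TOP1 (panel CPM) and the riboG window share (% of riboG UMIs) in the 8 deposited clusters, estradiol left of vehicle, with 95% counting intervals. TOP1 in the panel row is lower with estradiol in every cluster. The riboG share is highest in clusters 3 and 4 and lowest in cluster 2 in both libraries, while RNASEH2A is highest in cluster 0 with estradiol and TOP1 in cluster 7.

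The riboG hairpin carries a ribonucleotide in DNA, by its name, and in earlier use of this assay hairpins of this kind read the activity of RNase H2. The deposited rows count UMIs at each of 61 positions of the hairpin, and the sources used here do not give where in it the ribonucleotide lies. Most UMIs lay at positions 1 to 35, 91.9% with estradiol and 91.6% with vehicle, and position 9 alone had 15.1% with estradiol and 14.2% with vehicle. A separate peak lay at positions 44 to 50, taken from this profile as the window of processing. It was led by position 45, with 2.74% of riboG UMIs with estradiol and 2.92% with vehicle, which is 45.7% of the window with estradiol and 47.7% with vehicle. The window held 23940 of 399180 riboG UMIs with estradiol, 5.997% (5.92 to 6.07), and 26088 of 425689 with vehicle, 6.13% (6.06 to 6.20). The unmodified Normal hairpin had 0.102% (0.0944 to 0.110) of its UMIs there with estradiol and 0.113% with vehicle. Since the riboG profile set the window, its excess over the Normal hairpin there is a description. The log2 ratio of the riboG share between treatments was -0.03 (-0.06 to -0.01), or 0.018 with equal weight to each cell of at least 10 riboG UMIs, beside a log2 ratio of 1.03 for RNASEH2A and -0.26 for TOP1 in the same cells.

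**Figure D4:**
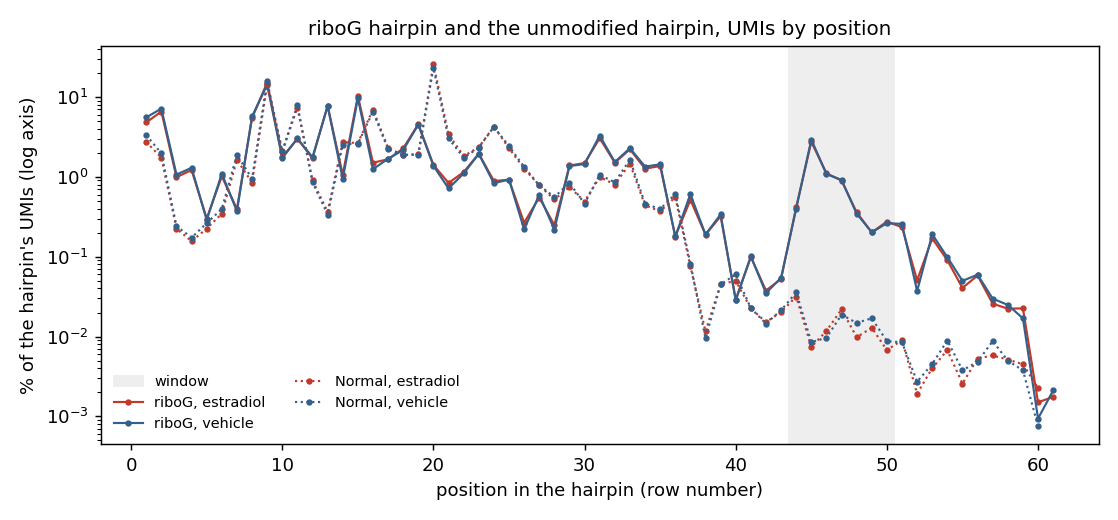
Percent of UMIs at each position of the riboG hairpin (solid lines) and of the unmodified Normal hairpin (dotted lines), on a log axis, with the window of positions 44 to 50 shaded. The peak at position 45 holds 2.74% of riboG UMIs with estradiol and 2.92% with vehicle and is missing from the Normal hairpin.

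The share in the window differed more between clusters than between treatments. It was 5.69% in G1 (5.56 to 5.82), 5.67% in S (5.53 to 5.80) and 6.47% in G2M (6.35 to 6.59) with estradiol, and 5.13% in G1 (5.03 to 5.23), 5.54% in S (5.37 to 5.72) and 7.52% in G2M (7.39 to 7.64) with vehicle. G1 cells were higher with estradiol and G2M cells lower, and the S intervals overlapped. Over clusters the share ran from 4.03% in cluster 2 to 7.55% in cluster 4 with estradiol, and from 3.42% in cluster 2 to 8.87% in cluster 3 with vehicle. In cluster 0 it was 5.85% with estradiol against 6.94% with vehicle, and in cluster 3 it was 7.49% with estradiol against 8.87% with vehicle. Cluster 4 had 7.55% with estradiol against 8.10% with vehicle, and cluster 6 had 4.87% with estradiol against 6.22% with vehicle. The intervals did not overlap in these 4 clusters. In cluster 1, mostly S cells, it was 4.97% with estradiol and 4.94% with vehicle. In cluster 2 the order turned, 4.03% with estradiol and 3.42% with vehicle, over 82 estradiol cells and 1150 vehicle cells.

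Depth per cell moved with the riboG share. Over the 16 groups of cluster and library the share correlated with the median all-gene UMIs per cell at a Pearson r of 0.85 (Spearman 0.81), and with the median repair UMIs at 0.63 (Spearman 0.71), or 0.95 and 0.97 within the estradiol and the vehicle library over 8 clusters each. Estradiol cells were deeper in both. Among cells of 800 to 1200 repair UMIs, a band chosen after seeing the data, the share was 5.42% in 993 estradiol cells and 5.68% in 2114 vehicle cells. The log2 ratio there was -0.07 (-0.12 to -0.02). Within this band G1 cells had 4.46% with estradiol and 4.70% with vehicle, S cells 5.52% with estradiol and 5.42% with vehicle, and G2M cells 7.09% with estradiol and 7.17% with vehicle, with each ratio's interval including 1. The G1 ratio, 0.15 on the log2 scale over all cells, was -0.07 (-0.16 to 0.01) there, and the G2M ratio, -0.22 over all cells, was -0.02 (-0.10 to 0.07). Cluster 0, at -0.25 over all cells, was at 0.09 (-0.01 to 0.19) in the band, and cluster 6 stayed lower with estradiol, at -0.37 (-0.63 to -0.13) over 37 estradiol cells and 291 vehicle cells. Cluster 5, at -0.18 (-0.34 to -0.01), and cluster 7, at -0.21 (-0.42 to -0.01), were lower with estradiol in the band too. The intervals of clusters 0, 1, 2, 3 and 4 included a ratio of 1. In a band of 1000 to 2000 all-gene UMIs the share was 5.30% with estradiol and 6.28% with vehicle, a log2 ratio of -0.25 (-0.28 to -0.21), and the G1 ratio was -0.17 (-0.24 to -0.11), but a median cell in this band still had 1249.5 repair UMIs with estradiol and 1008 with vehicle. The point value of the G1 ratio thus turned in sign in both bands, with an interval that excluded a ratio of 1 in the all-gene band alone. The clusters stayed apart within the repair band, where the share ran from 3.29% in cluster 2 to 8.37% in cluster 3 with estradiol, and from 3.37% in cluster 2 to 8.65% in cluster 3 with vehicle.

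Across clusters, the levels of the genes and the riboG share correlated weakly. Over the 16 groups the share correlated with the summed RNase H2 subunits at a Pearson r of 0.08 (Spearman 0.16), with RNASEH2A at 0.27 (0.31) and with TOP1 in the panel row at 0.15 (0.18). Without the 2 groups farthest from the median level these were 0.24, 0.28 and -0.00. The groups share library and depth, and the subunits rest on 5 to 166 UMIs per group, so a weak correlation in such counts is no finding. Cluster 4, with a high riboG share in both libraries, had 58.8 subunit CPM with estradiol (41.0 to 81.8) and 44.1 with vehicle (32.04 to 59.2). Cluster 1, where the riboG share was lower, had 97.5 with estradiol (80.3 to 117) and 119.9 with vehicle (95.5 to 149). Cells with a UMI of any subunit had a share of 6.11% with estradiol and 7.54% with vehicle, and cells without one 5.98% with estradiol and 5.97% with vehicle. The cells with a UMI were deeper, with a median of 1908 all-gene UMIs against 1515 without in the estradiol library, and 1581 against 1165 in the vehicle library. Within 1000 to 2000 all-gene UMIs the values in estradiol cells were 5.23% with a UMI (4.95 to 5.51) and 5.31% without (5.21 to 5.41). In vehicle cells they were 7.06% with a UMI (6.72 to 7.41) and 6.20% without (6.09 to 6.30), and these intervals did not overlap. Repair depth and phase were not matched in this band. On the Abasic hairpin, which carries a site without a base, the share in the same window was 57.9% with estradiol and 63.8% with vehicle, and over the 16 groups it ran against the riboG share, at r = -0.88.

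Most genes that complete ribonucleotide excision had a ratio above 1. These were 17 of 18 genes for PCNA, its loader, the replicative polymerases, flap and end nucleases and the ligase. Past 1.5-fold 2 were higher, EXO1 and POLD2, and 0 lower, where 3.4% of all genes were higher and 5.74% lower. Counts of 2 and 0 in a list this short are no finding. EXO1, a nuclease, was at 0.73 and POLD2, a subunit of polymerase delta, at 0.63 on the log2 scale, followed by POLE4 (0.58) and POLD1 (0.49). The median was 0.39, beside -0.03 over all genes. POLD4, a small subunit of polymerase delta and the member below 1, was at -0.31 (-0.52 to -0.10) in the all-gene row and -0.60 (-0.62 to -0.57) in the panel row. Of 9 genes of the list in the panel, 8 were above 1 with a median of 0.35. POLE2 (0.55), RFC3 (0.47) and FEN1 (0.44) led there, and 1 was past 1.5-fold, POLD4, which was lower, where 11.7% of panel genes were lower. Several of these genes are also replication genes that rise in S phase, and S cells were more frequent with estradiol; the part of that was not tested.

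Genes that make, charge or break down deoxynucleotides, SAMHD1 among them, had a median log2 ratio of 0.41 over 12 members. Of these 3 were past 1.5-fold higher and 0 lower, where 3.4% of all genes were higher and 5.74% lower. The 3 higher genes were NME1 (0.95), which charges nucleoside diphosphates and is close in sequence to NME2, DCTPP1 (0.65), a pyrophosphatase that clears dCTP and its analogues, and RRM2 (0.61), the S-phase small subunit of ribonucleotide reductase. RRM2B, the p53-regulated form of that subunit, was at -0.57 (-0.88 to -0.28), within 1.5-fold. In the TOP1 route and its clean-up 0 of 9 were past 1.5-fold, and the median was 0.07. At the shares of all genes above, a count of 0 in a list this short is no finding. APEX2 was at 0.44, PARP1, which binds broken DNA, at 0.35 and TOP1 at -0.28, and PARP1 in the panel row was at 0.31. Of the 9 genes that unwind or prevent RNA:DNA hybrids 0 were past 1.5-fold, beside the same shares of all genes, and the median was 0.22. The leading members were SRSF1 (0.45), DDX21 (0.43), DHX9 (0.41) and BRCA2 (0.36), the panel rows giving 0.32 for DHX9 and 0.18 for BRCA2.

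**Figure D5:**
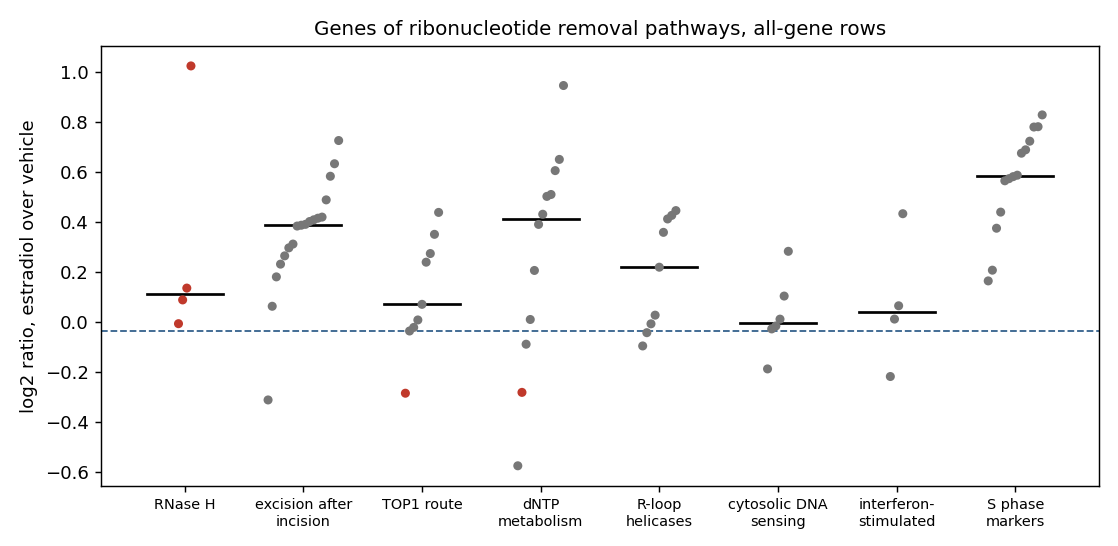
Log2 ratio of estradiol to vehicle in the all-gene rows for the genes of 7 lists around ribonucleotide removal and for S-phase markers, with red points for the 6 members, a black bar at each list's median and a dashed line at the median of all genes, -0.03. The medians are 0.39 for excision after incision, 0.41 for dNTP metabolism and 0.59 for the S-phase markers.

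Genes of cytosolic DNA sensing, the pathway set off where RNase H2 is defective, and of Aicardi-Goutières syndrome had no member past 1.5-fold. Of all genes 3.4% were higher and 5.74% lower, so a count of 0 in a list this short is no finding. Of the 8 genes of this joint list, 6 had at least 50 UMIs, ADAR and LSM11 among them, and the median log2 ratio was -0.00. IRF3 was at 0.28, IFIH1, a sensor of double-stranded RNA, at -0.19, TMEM173, which encodes STING, at 0.11 and TBK1 at -0.03. TMEM173 had 4.04 CPM with estradiol and 3.76 with vehicle. CGAS, the DNA sensor upstream of STING, and TREX1, a DNA exonuclease, had 0 UMIs in both libraries, which allows up to 0.505 CPM with estradiol and 0.434 with vehicle. TREX1 overlaps ATRIP, so a 0 there may not be read as absence. Of 15 interferon-stimulated genes 4 had at least 50 UMIs, with a median of 0.04 and 0 past 1.5-fold, beside the same shares of all genes. Among them ISG15 was at 0.43 (-0.39 to 1.27), IFI6 at -0.22 and IRF7 at 0.07. The 15 genes summed to 104 CPM with estradiol and 102 with vehicle.

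The genes whose level ran most like each member over the 16 groups were sought among 2321 genes with at least 1000 UMIs, by Pearson correlation of log2(level + 10), the level in CPM. The genes nearest RNASEH2A were KDELR2 (0.90), BRI3BP (0.89), NABP2 (0.89), HNRNPAB (0.89) and USP1 (0.88). Among those nearest RNASEH2B were POLD3 (0.83), TMEM258 (0.80), NDUFA3 (0.78) and GALNT1 (0.72). RNASEH2C was nearest to FAM111B (0.84), MCM4 (0.82), DUT (0.81), CDC6 (0.81) and EIF4EBP2 (0.80), and RNASEH1 was nearest to PSMA2 (0.95), NOP14 (0.93), ALDH7A1 (0.93), CUTA (0.93) and PPCS (0.93). TOP1 in the all-gene row was nearest to CREBBP (0.92), PTMS (0.89), FLOT1 (0.83), B2M (0.83) and RB1CC1 (0.83). SAMHD1, with fewer than 200 UMIs, was left out, and the groups share library and depth. RNASEH1 had 0 UMIs in the 82 estradiol cells of cluster 2, and between 24.3 and 47.9 CPM in the other groups. Its correlations may rest largely on that group and were not computed without it. RNASEH2A had 0 UMIs in cluster 6 and 1 in cluster 2 with estradiol, so its correlations also rest partly on groups near the floor.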

How the data were processed

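Single-cell libraries of 2 treatments were analysed, 1 mRNA and 1 repair library each. The deposited matrix holds natural log values, ln(1 + 10000 × UMI count / block total of that cell), for all-gene, panel and repair rows; this form was found from the values. UMI counts recovered from these deposited values were whole in 100% of entries within 1e-06, and their sums equalled the totals the authors deposited in 100% of cells. The percent of mitochondrial counts, the phase and the cluster of each cell are the authors' deposited columns, used as given. Per the submitters' processing notes, the tools were UMI-tools 0.5.3, Bowtie2 2.3.2, Cell Ranger 3.0.2, SAMtools and cutadapt 1.8.3, and the build was hg38. How the all-gene rows were sequenced and whether doublets were removed are not given in the sources used here; no caller was run, and an alternative dropped the 5% deepest cells.

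Counts were summed per library, phase or cluster and divided by the block total with Python 3.11.15, numpy 2.4.6, pandas 2.3.3 and scipy 1.17.1. Levels have exact Poisson intervals, shares exact Clopper-Pearson intervals and ratios the Clopper-Pearson interval given the summed count, all at 95% and for counting error only. No test across libraries was possible with 1 library per treatment. A count of 0 allows up to 3 counts. The ratio step was checked on simulated counts. Named genes are the members, up to 4 genes per list with the largest ratios, and the 5 genes most like each member with at least 200 UMIs. Some genes that this rule names are not reported here. The members and lists were chosen with earlier results of these data known. Promoter windows come from RefSeq on GRCh38.p14. The alternatives were other scalings, equal weights per cell, phase or cluster, and filters on cells.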

Additional observations from a re-analysis of the deposited data

Results flagged for a closer look

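RNASEH2C went opposite ways between phases: its log2 ratio of estradiol to vehicle was -0.77 in G1 cells, with an interval that excluded 0, and 0.26 in S and 0.22 in G2M cells, with intervals that included it. The difference between phases was not tested.

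The riboG window share went opposite ways between clusters and between phases. Its log2 ratio of estradiol to vehicle was 0.24 in cluster 2 and -0.25 in cluster 0, -0.24 in cluster 3, -0.10 in cluster 4 and -0.35 in cluster 6. By phase it was 0.15 in G1 cells and -0.22 in G2M cells. These differences were not tested. Among cells of 800 to 1200 repair UMIs the ratio was -0.04 in cluster 2, 0.09 in cluster 0, -0.05 in cluster 3, -0.08 in cluster 4 and -0.37 in cluster 6, and -0.07 in G1 and -0.02 in G2M cells.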

How the results depend on the processing

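Of 59 alternatives over 10 results, 49 kept the value within the interval of the reported one, 9 moved out of it and 1 reversed. RNASEH2A kept its direction in all 7 alternatives, between 0.66 and 1.12 on the log2 scale, the lowest being equal weight to each cluster, chosen after seeing the data. TOP1 in the panel row, reported at -0.26, was -0.16 with a median-of-ratios size factor, -0.19 without the 10 most abundant genes, -0.27 with equal weight to each cell and -0.22 with equal weight to each phase. The riboG ratio, reported at -0.03, was -0.092 at position 45 alone and, in settings chosen after seeing the data, -0.13 with equal weight to each cluster, -0.25 in cells of 1000 to 2000 all-gene UMIs and -0.069 in cells of 800 to 1200 repair UMIs. It reversed to 0.018 with equal weight to each cell of at least 10 riboG UMIs. The cause was not tested for any of these. RNASEH2B lay between -0.09 and 0.05, RNASEH2C between 0.02 and 0.16, RNASEH1 between 0.11 and 0.22 and SAMHD1 between -0.33 and -0.23. No paired analysis was possible because each treatment has 1 library per assay. With 53 to 231 UMIs per library, depth limits every member other than TOP1; the widest interval, for SAMHD1, ran from -0.82 to 0.25.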
